A study of Mus musculus with 6 samples.

Results

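Type I interferon-stimulated genes were examined in RNA-seq data from alveolar macrophages, the resident phagocytes of the lung airspaces. The set holds 42 genes chosen by name from the known antiviral interferon response, and a gene belonged to it when its symbol in the deposited expression table equalled one of those names. All 42 were among the 15824 genes of the table, and all 42 passed the low-count filter that left 11817 genes for testing. Flow cytometry was used to sort the cells from lungs at 8 weeks of age, and 3 libraries were wild type (WT) and 3 came from Men1 knockout mice (KO). The Men1 product, menin, is a scaffold of histone methyltransferase complexes. The labels name no infection, interferon or other stimulus. The strain, the allele, the cells in which Men1 was deleted, the sex of the mice and whether each library came from a separate animal are not stated in the labels, so the p-values measure the spread between these libraries, which may be technical.

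Type I interferons are secreted when a cell senses viral or misplaced nucleic acid. They bind the receptor formed by Ifnar1 and Ifnar2, and the kinases Jak1 and Tyk2 then switch on the transcription factor complex ISGF3. This complex binds interferon-stimulated response elements near the start of target genes, and the products of those genes sense viral RNA, degrade or edit it, block its translation, or conjugate ISG15 to proteins. Many of the genes are transcribed at a low level without infection, and alveolar macrophages are a main source of type I interferon when a respiratory virus infects the lung.

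Because interferon-stimulated genes are known for a shared response element, the bases before the transcription start are shown first for 5 members, taken from the RefSeq promoter windows of build GRCm38.p6, each printed 5′ to 3′ on the strand of its gene. Ifi44 and Ifi44l are shown because they changed most, Isg15 and Ifit1 because they are textbook targets that rose, and Rsad2 because it is one that fell. In Isg15, Ifit1 and Rsad2 the capitals mark exact matches, on either strand, to GAAANNGAAA, the core of the interferon-stimulated response element. In Ifi44 and Ifi44l, which had no exact match, they mark matches with 1 mismatch. The windows span chr3:151749911-151750060 for Ifi44, chr3:151762892-151763041 for Ifi44l, chr4:156200819-156200968 for Isg15 and chr12:26456453-26456602 for Rsad2, all on the minus strand, and chr19:34640739-34640888 on the plus strand for Ifit1.
Ifi44: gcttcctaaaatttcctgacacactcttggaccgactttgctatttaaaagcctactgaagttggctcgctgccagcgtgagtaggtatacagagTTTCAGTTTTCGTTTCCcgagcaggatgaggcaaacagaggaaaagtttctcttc
Ifi44l: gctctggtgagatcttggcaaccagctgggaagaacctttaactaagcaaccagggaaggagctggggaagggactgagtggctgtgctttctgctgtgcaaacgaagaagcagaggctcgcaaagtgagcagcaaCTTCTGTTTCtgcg
Isg15: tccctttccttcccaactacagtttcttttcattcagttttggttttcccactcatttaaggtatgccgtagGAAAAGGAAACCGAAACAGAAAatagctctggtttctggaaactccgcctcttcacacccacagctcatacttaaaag
Ifit1: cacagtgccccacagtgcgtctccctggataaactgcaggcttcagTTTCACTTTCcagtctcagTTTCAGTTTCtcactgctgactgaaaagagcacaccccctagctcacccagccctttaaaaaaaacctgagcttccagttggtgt
Rsad2: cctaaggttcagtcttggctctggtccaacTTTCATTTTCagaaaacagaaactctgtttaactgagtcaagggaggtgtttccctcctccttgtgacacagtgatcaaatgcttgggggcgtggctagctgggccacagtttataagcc

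The 3 overlapping matches of Isg15 began 78, 72 and 66 bases before its start. Those of Ifit1 began 104 and 85 bases before, and the single match of Rsad2 began 120 bases before. The joined stretch of Ifi44 holds 3 overlapping 10-base matches with 1 mismatch, TTTCAGTTTT, TTTTCGTTTC and TTTCGTTTCC, which began 55, 49 and 48 bases before the start. In Ifi44l the match CTTCTGTTTC began 14 bases before the start, and 2 more with 1 mismatch lay outside the printed bases, TTTCATTTTA at 192 and TTGCATTTTC at 231. A match is a run of letters and not a measured binding site.

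RefSeq windows were found for 34 members, and none for Dhx58, Ifi204, Oas2, Parp14, Parp9, Rtp4, Usp18 and Zbp1. In windows of 300 bases (250 before the start and 50 after), 15 of the 34 members (44.1%) held an exact match, against 3.99% of all 27025 genes with a window. The element was thus more frequent in these genes, which were named for the response, than in the genome. TTCNNNGAA, the motif bound by STAT dimers, was found in 8 members (23.5%) and in 9.55% of all genes. When 1 mismatch was allowed in the 250 bases before the start, 30 members (88.2%) and 34.7% of all genes had a match.

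Members that rose and members that fell were found both with and without a match. Of the 15 members with an exact match, 8 were higher in KO, 5 were lower and 2 did not pass the test, with a median log2 fold change of 0.17. Of the 19 with a window and no exact match, 10 were higher, 3 were lower and 6 did not pass, with a median of 0.22. Ifit3 and Ifit3b each held the same 2 exact matches, which began 156 and 122 bases before the start in Ifit3 and 188 and 154 in Ifit3b, and neither gene rose.

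The libraries held 19955245 to 20151990 counts each. Men1 had 639, 594 and 603 counts in WT and 150, 149 and 165 in KO, 3.80-fold lower, the direction the labels give. The 4 Y-linked genes checked had 283 to 1530 counts in WT libraries but never more than 2 in a KO library, so the genotype and the presence of Y-linked transcripts cannot be told apart in any comparison made here. The summed markers of alveolar macrophages were higher in KO (1254 to 1297 CPM) than in WT (367 to 381 CPM) through Marco, but of 7 tested markers 4 fell (Atp6v0d2, Siglecf, Pparg and Itgax) and 3 rose, with a median log2 fold change of -0.27. Of the 12 listed markers in the table, 4 (Fabp1, Plet1, Ear2 and Ear6) had at most 3 counts in every library, and Siglecf had 23 to 47. General macrophage markers were abundant (27488 to 28643 CPM in WT and 32268 to 33030 in KO), so the libraries read as macrophages with few of the defining alveolar markers. In bulk RNA from sorted cells, a different mix of cells and a different amount of RNA per cell cannot be told apart.

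In KO macrophages 24 of the 42 members rose and 9 fell, while 9 did not pass the test (edgeR quasi-likelihood test, two-sided, adjusted p below 0.05 over all genes tested). Members that rose made up 57.1% of the set and members that fell 21.4%, while 34.4% of all tested genes were called higher and 34.9% lower. Calls in either direction covered 78.6% of the members and 69.2% of all genes, so the share that moved at all was close to the background, while the share called higher was above that of all genes. The median log2 fold change of KO over WT was 0.23 in the members, also with Ifi44l at its lower bound, and 0.0014 over all genes. The members' median absolute log2 change was 0.28, beside 0.24 over all genes, so most of these changes were small. The libraries of a group differed little, with a biological coefficient of variation of 1.66%, and differences below 1.2-fold passed the test.

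The groups did not overlap in CPM (counts scaled to TMM-adjusted library sizes) for 33 of the 42 members, or for 71.2% of all tested genes. KO lay above WT in 25 members and below in 8. Only Ifi44 and Ifi44l (2 of 42) passed with a change of at least 2-fold, as did 8.20% of all tested genes (3.26% higher in KO). The other 40 lay between a log2 fold change of -0.66 for Herc6 and 0.75 for Ifi204. Without the pair, 22 of 40 rose and 9 fell, with a median of 0.22. On the authors' TPM scale the median of all genes moved to -0.12 (log2), and 21 members were then called higher and 13 lower, so that 61.8% of the members' calls were higher in place of 72.7%. The same split over all genes went from 49.6% to 29.9% higher.

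**Figure D1:**
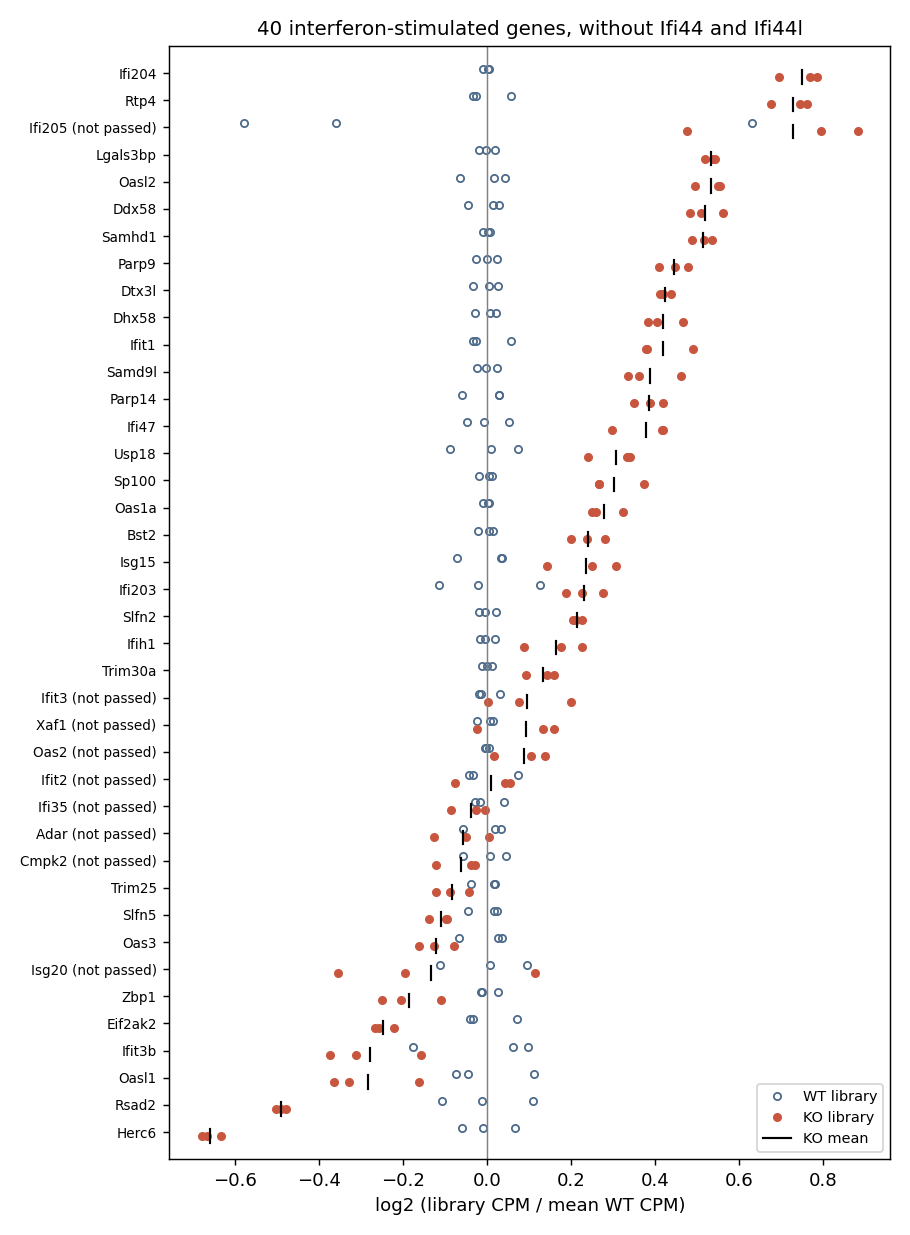
Each row is one of the 40 members other than Ifi44 and Ifi44l, and the x axis gives log2 of the CPM in a library over the mean WT CPM, with open circles for the 3 WT libraries, filled circles for the 3 KO libraries and a black bar for the KO mean. Members are ordered by the KO mean from Ifi204 and Rtp4 at the top to Rsad2 and Herc6 at the bottom, and 9 of them did not pass the test.

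Ifi44 and Ifi44l, neighbouring genes named for induction by interferon, moved apart from the other members. Ifi44 (gene ID 99899) encodes a cytoplasmic protein with a reported antiviral and antiproliferative action. It had 86, 94 and 82 counts in the WT libraries and 952, 886 and 864 in the KO libraries, so every KO library was far above every WT library. Its CPM rose from 4.28 ± 0.314 (SD, n = 3) to 45.9 ± 2.21, a 10.7-fold increase (log2 3.42, SE 0.072, edgeR adjusted p = 7.26e-31). Ifi44l (gene ID 15061), its paralogue, had 0 counts in each WT library and 175, 196 and 181 in the KO libraries. It passed the low-count filter through its KO counts alone, so its difference is partly set by that filter. In KO it reached 9.37 ± 0.580 CPM, which is at least 63.8-fold higher than the 0.147 CPM that 3 counts per WT library would give (edgeR adjusted p = 7.65e-23). The files count reads per gene, and the labels do not say how reads shared by paralogues were assigned, although the counts of both genes were whole in every library.

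Set against the other 40 members in the same library, where library scaling cancels, Ifi44 changed place. Its log2 CPM lay 3.19, 3.06 and 3.23 below the median of the 40 in the WT libraries, and 1 of the 40 had a lower CPM than Ifi44 in each of them. In the KO libraries it lay 0.22, 0.27 and 0.33 below that median, and 19 of the 40 were lower in each. The mean gap thus closed from -3.16 ± 0.088 (SD, n = 3) to -0.28 ± 0.052, a difference of 2.89 on the log2 scale. The log2 fold change of Ifi44 exceeded that of Ifi204, the next member, by 2.67 (SE 0.082), or 6.36-fold. This excess is given as a description, because the pair had already been singled out on these libraries.

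**Figure D2:**
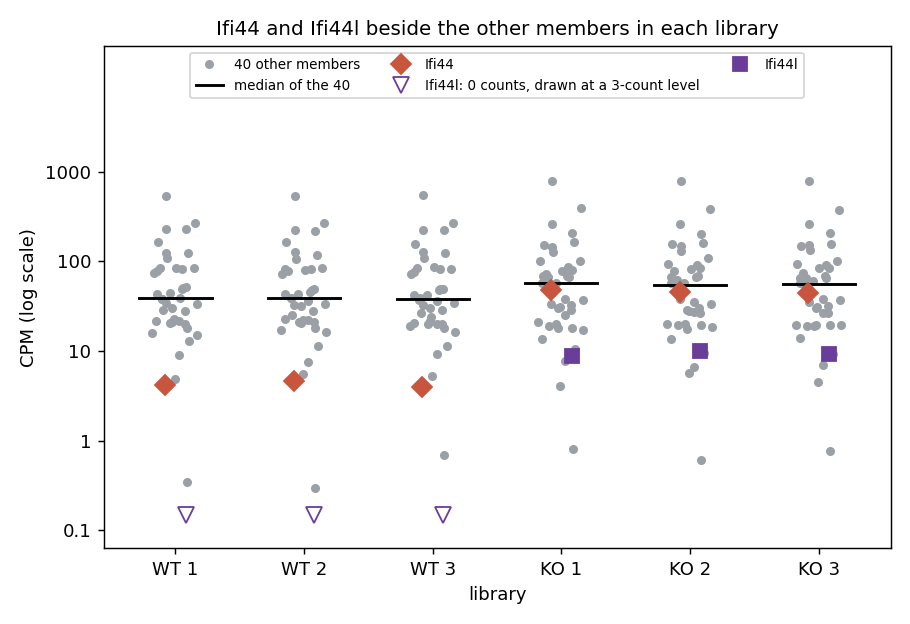
CPM on a log axis in each of the 6 libraries, with grey points for the 40 other members, a black line at their median, a red diamond for Ifi44 and a purple square for Ifi44l, whose 0 counts in WT are drawn as open triangles at the level of 3 counts. Ifi44 sits near the bottom of the set in the WT libraries and just under the median in the KO libraries.

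Per unit of transcript length both genes moved up from the bottom of the set, Ifi44 to near its middle and Ifi44l less far. By mean FPKM, Ifi44 was ranked 40 of 42 in WT (1.74 ± 0.126 FPKM, SD, n = 3) and 24 in KO (17.8 ± 0.929 FPKM). Ifi44l was ranked 42 in WT, where it was listed at 0, and 32 in KO (9.52 ± 0.541 FPKM). Within KO the FPKM of Ifi44 was 1.87 times that of Ifi44l. Over the other 40 members, the WT level did not order the changes closely, with a Spearman correlation of 0.27 between WT FPKM and log2 fold change, a description across genes of the same 6 libraries.

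The 2 genes lie on chromosome 3 (GRCm38.p6), Ifi44 at chr3:151730922-151749910 and Ifi44l at chr3:151758737-151762891, both on the minus strand with 8.83 kb between them. Of the other listed genes within 500 kb, 4 were tested and all 4 fell, beside 34.9% of all tested genes called lower. Adgrl4, which encodes an adhesion receptor best known in endothelium, had 27, 18 and 23 WT counts and 11, 9 and 6 KO counts (log2 -1.32, edgeR adjusted p = 3.08e-04). Gipc2, a PDZ-domain protein gene, fell by 0.90 on the log2 scale, Dnajb4, a heat shock protein 40 co-chaperone gene, by 0.55, and Fubp1, which encodes a single-stranded DNA binding protein, by 0.38. Ptgfr and Nexn had at most 6 counts in any library and were not tested. The rise at this position was seen in Ifi44 and Ifi44l and in none of the 4 tested neighbours. Of these, Adgrl4 and Gipc2 had at most 30 counts in any library. The cause of the rise was not tested.

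**Figure D3:**
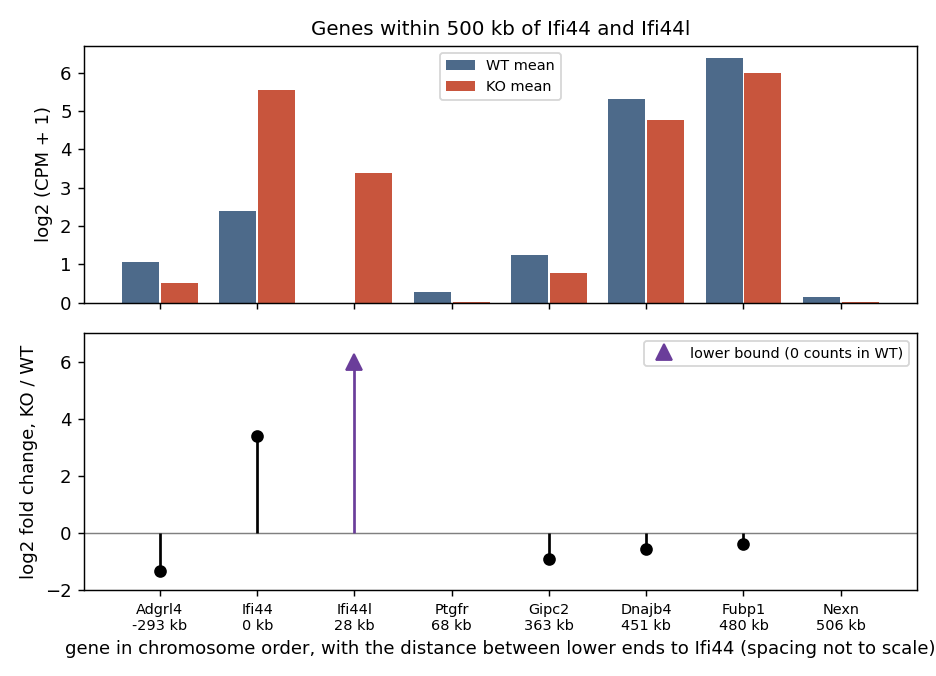
The listed genes within 500 kb of the pair in chromosome order, with their mean log2 (CPM + 1) in WT (blue bars) and KO (red bars) above and the log2 fold change of the tested genes below. Ifi44 stands at 3.42, the triangle for Ifi44l marks its lower bound of 5.99, and the 4 tested neighbours lie below 0.

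Members that detect viral nucleic acid rose in 5 of 7 cases. For comparison with this group and the next ones, 34.4% of all tested genes were called higher and 34.9% lower. The RNA helicases of the RIG-I family all rose. Ddx58, which encodes RIG-I itself, had 778, 785 and 751 counts in WT and 1100, 1035 and 1056 in KO, with no overlap, and was 1.43-fold higher (log2 0.52, SE 0.041, edgeR adjusted p = 1.51e-13). Dhx58, which encodes the regulatory helicase LGP2, rose 1.34-fold. Ifih1, which encodes the long-RNA sensor MDA5, rose 1.12-fold from 568, 562 and 581 to 644, 582 and 620 counts, but this call was lost with total-count scaling and on the FPKM and TPM scales.

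Among the sensors of DNA and Z-form nucleic acid, Ifi204, a PYHIN-family DNA sensor, had 781, 788 and 792 counts in WT and 1310, 1223 and 1290 in KO. All 3 KO libraries were well above WT, and the 1.68-fold rise (log2 0.75, SE 0.040, edgeR adjusted p = 1.38e-18) was the next after those of the Ifi44 pair. Ifi203, of the same PYHIN cluster on chromosome 1, rose 1.17-fold. The third member from that cluster, Ifi205, was barely transcribed, with 7, 6 and 14 counts in WT and 16, 12 and 15 in KO. Its groups overlapped through the WT library with 14 counts, and its log2 fold change of 0.72 did not pass (edgeR adjusted p = 0.0645). Without that library, WT replicate 3, it was 1.18 and passed. The counts of these 3 PYHIN genes were not whole in every library, so reads shared with related genes make their levels uncertain.

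Zbp1, which encodes a sensor of Z-form nucleic acid that triggers necroptosis, fell. It had 423, 422 and 437 counts in WT and 358, 345 and 381 in KO, a 1.14-fold decrease (log2 -0.19, edgeR adjusted p = 0.00654), and DESeq2 did not call it. Its deposited FPKM values fell further, from 39.5, 37.8 and 40.7 in WT to 27.2, 24.7 and 28.6 in KO, a log2 ratio of the means of -0.55. The difference between the FPKM and count changes was -0.37 for Zbp1 and no lower than -0.12 for any other member, beside a median of -0.06 over all tested genes, of which 0.339% were at or below Zbp1. FPKM divides by a length that the files do not list, so its part in this difference was not tested.

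The enzymes and effectors that act on double-stranded RNA were split, with 2 of 7 higher and 3 lower, not far from the shares of all tested genes. Oasl2, an OAS-like protein gene, had 986, 915 and 975 counts in WT and 1355, 1297 and 1355 in KO, a 1.45-fold rise without overlap (log2 0.53, SE 0.039, edgeR adjusted p = 1.03e-14). The adjacent gene Oasl1, whose product inhibits Irf7 translation, went the other way, from 260, 233 and 230 counts to 208, 184 and 180, and was 1.22-fold lower. The 2 genes lie beside each other on chromosome 5, and their KO libraries fell on opposite sides of WT.

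The oligoadenylate synthetases, which make the activator of RNase L, did not share a direction. Oas1a rose 1.21-fold from 2197, 2175 and 2214 to 2520, 2520 and 2641 counts, and Oas3 was 1.09-fold lower. Oas2 had 363, 365 and 366 counts in WT and 356, 385 and 377 in KO and did not pass (log2 0.09, 95% interval -0.03 to 0.21), although in CPM its groups did not overlap. On the TPM scale its value was -0.05. Eif2ak2, which encodes the kinase PKR that halts translation, fell 1.19-fold from 1569, 1686 and 1571 counts to 1332, 1291 and 1286. Adar, the RNA-editing deaminase gene, had a log2 fold change of -0.06 and did not pass (95% interval -0.13 to 0.01).

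The IFIT genes, whose products bind foreign RNA ends and block translation, lie together on chromosome 19 and also diverged. Ifit1 rose 1.34-fold, from 406, 432 and 411 counts to 565, 520 and 521, with no overlap. Ifit3b was 1.21-fold lower, from 183, 155 and 189 counts to 152, 130 and 136. Its groups overlapped in CPM, its call was lost with DESeq2, and without WT replicate 3 or KO replicate 2 it did not pass either. Ifit3 (log2 0.10, 95% interval -0.00096 to 0.19) and Ifit2 (log2 0.01, 95% interval -0.08 to 0.10) did not pass, and both were below 0 on the TPM scale. Ifit3 and Ifit3b are near-identical copies with counts that were not whole, so their split is uncertain.

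Rsad2, which encodes viperin, an enzyme that makes a chain-terminating nucleotide, fell. It had 588, 506 and 544 counts in WT and 372, 376 and 374 in KO, and the KO libraries were all below the lowest WT library (1.40-fold lower, log2 -0.49, SE 0.059, edgeR adjusted p = 4.19e-09). Cmpk2, a mitochondrial nucleotide kinase gene that lies 12.8 kb from it start to start on chromosome 12, had 421, 432 and 405 counts in WT and 397, 392 and 371 in KO, and did not pass (log2 -0.06, 95% interval -0.18 to 0.06). Samhd1, which encodes a phosphohydrolase that depletes deoxynucleotides, rose instead. Its counts were 5495, 5471 and 5471 in WT and 7667, 7514 and 7398 in KO, a 1.43-fold rise without overlap (log2 0.51, SE 0.022, edgeR adjusted p = 1.36e-21). Isg20, a 3′ to 5′ exonuclease gene, had a log2 fold change of -0.13 and did not pass, with overlapping groups.

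The genes of ISG15 conjugation, ubiquitin ligation and ADP-ribosylation rose in 6 of 8 cases. Isg15, the ubiquitin-like modifier gene, rose 1.18-fold from 304, 327 and 329 counts to 341, 365 and 381, and Usp18, which removes ISG15 and also blocks the receptor, rose 1.24-fold from 436, 455 and 410 counts to 495, 527 and 526. The call of Isg15 was lost on the TPM scale. Herc6, the mouse ligase that attaches ISG15 to its targets, fell the most of all members. It had 435, 458 and 423 counts in WT and 267, 263 and 272 in KO, a 1.58-fold decrease with no overlap (log2 -0.66, SE 0.064, edgeR adjusted p = 2.48e-11).

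Parp14 and Parp9, which encode ADP-ribosyltransferases, and Dtx3l, the ubiquitin ligase partner of Parp9, lie together on chromosome 16 and rose by similar amounts. Their log2 fold changes were 0.39, 0.45 and 0.42. Parp9 had 1016, 980 and 1005 counts in WT and 1317, 1337 and 1279 in KO. Dtx3l had 886, 871 and 855 counts and then 1124, 1132 and 1115. Parp9 and Dtx3l overlap at their ends in the annotation and their counts were not whole, so their levels are not fully separate measurements. Trim30a, a TRIM-family gene, rose 1.10-fold but had a log2 value of -0.0058 on the TPM scale, and Trim25, the ligase gene known for activating RIG-I, was 1.06-fold lower, a call that was lost without KO replicate 3.

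Of the other 10 effectors, 7 rose, 1 fell and 2 did not pass. Rtp4, which encodes a receptor-transporting chaperone, had 1061, 1001 and 1003 counts in WT and 1575, 1644 and 1667 in KO. It rose 1.66-fold without overlap (log2 0.73, SE 0.037, edgeR adjusted p = 4.88e-19), almost as much as Ifi204. Samd9l, an antiviral and growth-restraining gene, rose 1.31-fold, Ifi47, an interferon-inducible GTPase gene, 1.30-fold and Sp100, a nuclear body gene, 1.23-fold. Slfn5, a Schlafen-family gene, was 1.08-fold lower. Slfn2, which keeps immune cells quiescent and lies in the same cluster on chromosome 11, rose 1.16-fold. Xaf1, a pro-apoptotic gene, had a log2 fold change of 0.09 and Ifi35, a leucine zipper protein gene, of -0.04, and neither passed.

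The members with the highest level per transcript length all rose. Lgals3bp, which encodes a secreted galectin-binding glycoprotein, had 11008, 10865 and 11231 counts in WT and 15278, 15423 and 15418 in KO. It stood at 295 ± 3.86 FPKM in WT (SD, n = 3) and 410 ± 1.59 FPKM in KO, and its count rose 1.45-fold (log2 0.53, SE 0.019, edgeR adjusted p = 5.01e-24). Bst2, which encodes tetherin, a tether that holds budding virions at the cell surface, had 2539, 2583 and 2617 counts in WT and 2862, 2918 and 3013 in KO, or 272 ± 1.47 and 307 ± 5.52 FPKM, a 1.18-fold rise in counts. Slfn2 had 4626, 4489 and 4565 counts in WT and 5153, 5069 and 5056 in KO, or 171 ± 3.46 and 191 ± 2.58 FPKM. Samhd1 followed at 84.1 ± 1.36 FPKM in WT and 113 ± 2.29 in KO. These 4 kept ranks 1 to 4 of the set in both groups.

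**Figure D4:**
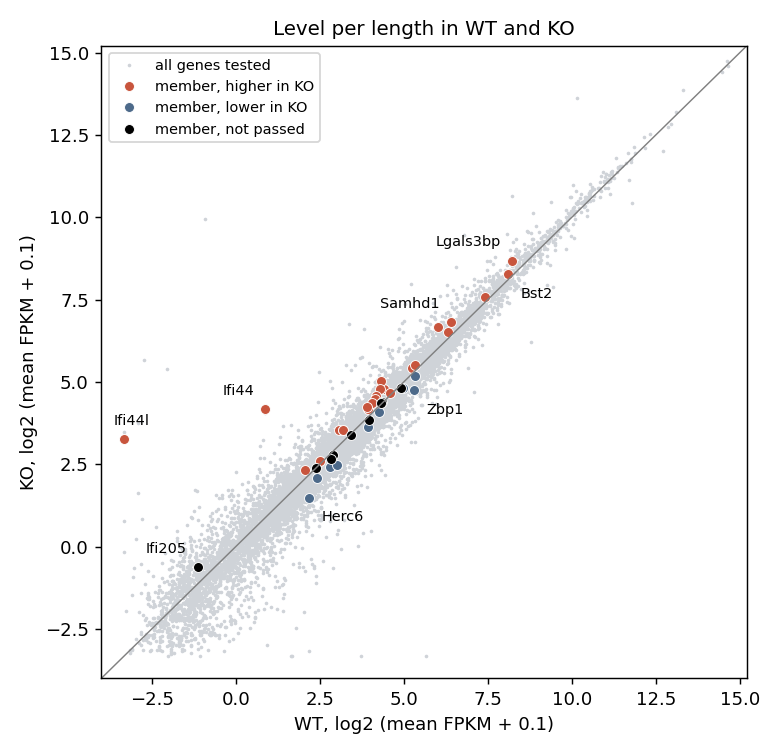
Mean level per transcript length in WT (x axis) and KO (y axis), both as log2 (mean FPKM + 0.1), with all tested genes in grey, members that were higher in KO in red, lower in blue and not passed in black, and equal levels on the diagonal. Ifi44 and Ifi44l lie far above the diagonal, and the other 40 members stay close to it over their whole range of levels.

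Genes that lay together did not always move together. The 3 PYHIN members (log2 0.23 to 0.75) and the Parp14, Parp9 and Dtx3l cluster (0.39 to 0.45) were each above 0 throughout. Of the PYHIN members, Ifi205 did not pass. Among other listed PYHIN genes on the same stretch of chromosome 1, Ifi202b (-0.67) and Ifi207 (-0.12) fell. Mndal (0.18) and Ifi209 (1.34) rose. Ifi206 (4.56) and Ifi208 (2.77) rose too, but had at most 2 and 4 counts in any WT library. Both passed the low-count filter through their KO counts alone, so their differences are partly set by that filter. The IFIT cluster (-0.28 to 0.42) and the pair of OAS-like genes (-0.28 and 0.53) each held both signs. So did the OAS members (-0.12 to 0.28) and the 2 Schlafen members (-0.11 and 0.22). In the IFIT cluster only Ifit3b was below 0, and its split from Ifit3 is uncertain.

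The upstream pathway was read from lists of its other genes. The counts in these lists stand beside the 34.4% of all tested genes called higher and 34.9% called lower. Of 21 interferon ligand genes, only Ifnz was listed in the table, with 1 count in 1 KO library. Ifnb1 and the Ifna genes were not listed, so no ligand could be tested. Of 8 tested receptor chains and kinases, 7 rose and none fell, with a median log2 fold change of 0.30. Ifnar1, a chain of the type I receptor, rose 1.24-fold (edgeR adjusted p = 7.69e-14). Ifngr1, which binds interferon gamma, rose 2.29-fold from 88.8 ± 2.71 to 203.8 ± 4.85 CPM (SD, n = 3), and Ifngr2 rose 1.37-fold. The kinase gene Jak1 did not pass (log2 0.03).

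Among 9 transcription factors of the response, 8 rose, with a median of 0.28 over the 9. Irf1, which can drive interferon-stimulated genes without ISGF3, rose 2.09-fold from 23.3 ± 0.425 to 48.7 ± 0.487 CPM (edgeR adjusted p = 2.19e-21). Irf7, the amplifier of type I interferon transcription and itself an interferon-stimulated gene, rose 1.35-fold, and Stat2 rose 1.33-fold. Among 13 tested genes that lead to interferon production, 7 rose and 4 fell. Unc93b1, which carries nucleic acid receptors to endosomes, rose 2.01-fold, the kinase gene Ikbke 2.40-fold and the adaptor gene Myd88 1.65-fold.

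Of 9 feedback inhibitors, 5 rose and none fell. Ptpn6, which encodes the phosphatase SHP-1, rose 1.43-fold, Trex1, a DNase gene that removes cytosolic DNA, 1.86-fold and Socs3, an inhibitor of cytokine receptor kinases, 1.27-fold. Of the partners of ISG15, the activating enzyme gene Uba7 was 1.57-fold higher and the conjugating enzyme gene Ube2l6 did not pass (log2 -0.06). Herc3, listed with them as a relative of Herc6 and not as a known ISG15 enzyme, was 1.37-fold lower.

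A longer list of other interferon-stimulated genes was counted the same way. Of 65 tested, 38 rose and 10 fell, with a median log2 fold change of 0.19, and 8 of the 65 changed at least 2-fold, 6 of them upwards, beside the 8.20% and 3.26% of all tested genes given above. Ifitm2, which blocks virus entry, rose 2.19-fold and Ifi27l2a 4.03-fold, from 12.8 ± 1.43 to 51.7 ± 2.21 CPM (edgeR adjusted p = 1.25e-26). Ifitm3, the related entry inhibitor gene, rose 1.41-fold. Some other genes, chosen after their values were seen, went further in either direction. Ifi206, a PYHIN gene, had 1, 1 and 2 counts in WT and 28, 40 and 31 in KO, whereas Ifitm1 was 3.08-fold lower and Ccl12, a chemokine gene, 3.48-fold lower. Like Ifi44l, Ifi206 passed the low-count filter through its KO counts alone. Going by Ifitm2 and Ifi27l2a, a rise past 2-fold was not limited to the Ifi44 pair once genes beyond the 42 were counted.

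**Figure D5:**
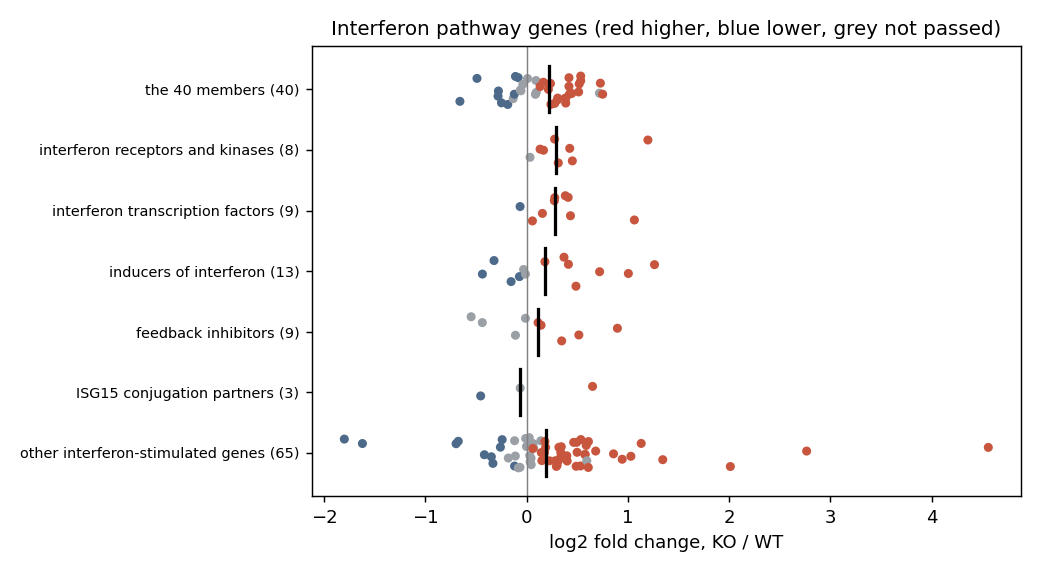
Log2 fold change of KO over WT for each tested gene of the 40 members and of 6 lists of pathway genes, with the number tested in brackets, red for higher, blue for lower, grey for not passed and a black bar at the median of each list. The medians run from -0.06 for the ISG15 list, which holds Uba7, Ube2l6 and Herc3, to 0.30 for receptors and kinases.

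Marker sums of other cells also moved with the genotype. Fibroblast markers fell in 9 of 9 tested cases, from 84.2 to 86.1 CPM in WT to 9.29 to 10.7 CPM in KO. Interstitial macrophage markers rose in 7 of 9 cases, from 1036 to 1058 CPM to 1940 to 1979 CPM, and monocyte markers rose in 5 of 9, from 119 to 120 CPM to 398 to 404 CPM. Plasmacytoid dendritic cells, known as strong producers of type I interferon, had marker sums of 48.7 to 49.8 CPM in WT and 47.9 to 49.9 CPM in KO, most of it from Tcf4, which did not pass. Of the 7 tested markers 3 fell (Siglech 2.55-fold, Pacsin1 4.75-fold and Runx2 1.57-fold) and 1 rose, and Siglech had at most 18 counts in any library. The part of these other cells in the members' values was not tested.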

How the data were processed

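RNA-seq libraries from 3 WT and 3 KO samples were compared. HISAT, Bowtie2 and build GRCm38.p6 are named, without roles, in the submitters' processing notes. PolyA selection is given per the labels' protocols. Neither the counter nor the annotation is stated there. The deposited expected counts per gene were not whole for 8.66% to 9.19% of genes and were rounded. The deposited FPKM and TPM values are the authors' own. A deposited normalised count signal was not used. The authors' heat map table of log2 (FPKM + 1) values lists 28 of the 42 members among 6784 genes and served only for that count.

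The groups were compared with edgeR 4.0.16 in R 4.3.3 (quasi-likelihood test, TMM scaling, filterByExpr, group only), with Benjamini-Hochberg adjustment over 11817 genes and a threshold of 0.05. The filter removed 4007 genes. Alternatives used limma 3.58.1, with pseudocounts of 1 and 0.1 on FPKM and TPM, and DESeq2 1.42.0. Python 3.11.15, pandas 2.3.3, SciPy 1.17.1 and matplotlib 3.10.9 served for the rest. The gene test was also run on simulated counts given the same biological variation for every gene, which real genes need not share. No result given here rests on that run. A 3-count floor stands for a count of 0 and covers counting error only. Libraries of a group differed beyond counting noise in every pair (chi-square per degree of freedom 1.37 to 1.59), so none was treated as a repeat deposit of another, which leaves unsettled whether they are separate animals. The members, the pathway and marker lists and the tests were chosen with earlier results of these data known. Per-library values are given for the 8 largest changes that passed, the 4 highest FPKM levels, Ifi44, Ifi44l and members at 0 in a group. Those of other members were chosen for printing after they were seen. From each pathway list up to 3 genes by smallest p were named, with exceptions stated or added for context (Jak1). One transcription factor is not reported here. Marker lists for B cells, T and NK cells, neutrophils, dendritic cells, epithelium and endothelium are given in the closing section.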

Additional observations from a re-analysis of the deposited data

How the results depend on the processing

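Of the 42 members, 17 kept their direction and call in all 23 settings, and 27 did so apart from a fit that assumed a biological variation of 0.1 and a test against a 1.2-fold change. With the assumed variation 17 members were higher and 2 lower. Against 1.2-fold 15 were higher and 2 lower. The members' median log2 fold change was 0.18 with total-count scaling, 0.17 on log2 (FPKM + 1) with or without the filter and on log2 (FPKM + 0.1), 0.090 on log2 (TPM + 1), 0.091 on log2 (TPM + 0.1), 0.21 on TPM centred on the median gene (an alternative added after the data were seen), and 0.21 to 0.25 when 1 library was left out. The difference between Ifi44 and the median of the other members was 2.62 on log2 (FPKM + 1) with or without the filter, 3.12 with 0.1 added, 2.76 on log2 (TPM + 1), centred or not, and 3.14 with 0.1 added, and it was 2.85 to 2.94 with 1 library left out. The log2 fold change of Ifi44 stayed within 2.78 to 3.48 and passed in every setting. The fitted value for Ifi44l ran from 3.39 to 10.6, since it depends on the pseudocount, and is not used.

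Directions that turned were those of members near 0. Ifit2 was at -0.048 with total-count scaling, at -0.046 on log2 (FPKM + 1) with or without the filter, at -0.050 with 0.1 added, at -0.12 and -0.13 on TPM with 1 and 0.1 added, at -0.0040 on centred TPM, and from -0.013 to 0.052 with 1 library left out (below 0 without WT replicate 2 or 3 or KO replicate 1 or 3). On TPM with 1 and 0.1 added, Oas2 was at -0.053 and -0.060, Ifit3 at -0.048 and -0.049, Xaf1 at -0.064 and -0.066 and Trim30a at -0.0058 and -0.0059. The cause was not tested, except that TPM moves the median of all genes. The 31 members with whole counts gave 18 higher and 6 lower, also an added alternative. DESeq2 gave 24 higher and 7 lower. The replicate numbers do not pair the samples by the labels. Same-numbered libraries correlated at 0.097, 0.034 and 0.053 in their deviations from the group means, and each correlated best with its own number, a hint from the data only. With the replicate number as a block, 24 members were higher and 9 lower, and the count over all genes was 4121 higher and 4200 lower. Depth limits Ifi205, with at most 16 counts in a library.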

Other observations

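The marker lists of other cells not described above gave these summed levels. Conventional dendritic cell markers summed to 38.6 to 39.3 CPM in WT and 62.3 to 66.0 CPM in KO, with 4 of 5 tested markers higher in KO. Neutrophil markers summed to 877 to 895 CPM in WT and 789 to 812 CPM in KO, although 5 of 6 tested markers were higher in KO. T and NK cell markers summed to 336 to 350 CPM in WT and 133 to 139 CPM in KO, mostly through the interleukin 7 receptor gene Il7r, although the other 2 tested markers were higher in KO, Cd4 by 4.51-fold and Klrb1c with 1, 3 and 0 counts in WT and 48, 53 and 49 in KO, and Ncr1 and Nkg7 had at most 3 counts in every library. B cell markers summed to 10.8 to 11.3 CPM in WT and 15.5 to 16.6 CPM in KO, epithelial markers to 2.40 to 2.88 and 1.07 to 1.38 CPM, and endothelial markers to 78.6 to 81.6 and 66.1 to 68.8 CPM.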
